A study of Rattus norvegicus with 9 samples.

Results

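Genes that mark tissue macrophages were followed in the vestibular epithelium of rats under chronic ototoxic exposure: Cd68, Csf1r, Aif1, Cx3cr1, Ptprc, Cd163, Mrc1, Lyz2, Tyrobp and Fcer1g. They were found by their symbols, and all 10 were among the 32883 genes of the table and among the 15517 genes with enough counts to be tested. Male Long-Evans rats were given 3,3′-iminodipropionitrile (IDPN), which damages vestibular hair cells (HCs), at 20 mM in their water for 3 weeks (IDPN-3wk) or 7 weeks (IDPN-7wk), and control rats drank plain water. Each library was made from the pooled utricles and cristae of a single rat, with 3 libraries in each of the 3 groups. A single control group served both exposures and mixed rats taken with the IDPN-3wk and with the IDPN-7wk rats, and the labels do not say which control belongs to which time. The comparisons ask how these genes stood at an earlier and at a later stage of the exposure. The ages of these rats are not given in the sources used here, and pooling whole epithelia keeps no record of region or of the layer in which a cell lay.

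Macrophages are phagocytes that reside in most tissues, the inner ear included, where they clear debris and dying cells. Their survival depends on the receptor encoded by Csf1r and its ligands CSF1 and IL-34, and many of their surface receptors signal through small adaptor proteins that carry an ITAM motif, a tyrosine-based signalling sequence. In RNA from whole tissue, fewer cells of a type and less RNA per cell cannot be told apart.

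Total counts per library ran from 31100118 to 46018385, so that 3 counts, taken as the smallest visible level, stood for 0.0611 to 0.101 CPM (counts scaled to a common library size). This floor covers counting error only, whereas the intervals of fold changes come from the spread between rats. HC genes, which mark the labelled tissue, were present in every library, and their summed level was 1408 to 1569 CPM in controls, 695 to 989 CPM in IDPN-3wk rats and 695 to 777 CPM in IDPN-7wk rats. When all libraries were thinned to the same total, between 15387 and 15492 genes were detected in control replicate 3 and in IDPN-3wk replicates 1 and 2, against 16831 to 17313 in the other 6 libraries, and results are therefore also given without those 3 libraries. Levels are CPM after TMM normalization, a scaling that lines up the bulk of the genes between libraries, and each mean carries the SD of 3 rats.

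Upstream windows of 250 bases that end at the annotated gene start were searched for GAGGAA and GGAAGT, short forms of the site of the ETS factors, a family that includes the myeloid factor PU.1 (Spi1). Windows were matched for 7 of the 10 genes, from the RefSeq annotation of build GRCr8. Of these 7, 5 held GAGGAA on either strand, against 23.3% of all 33469 windows, and 4 held GGAAGT, against 19.2%. Either motif was found in 5 of the 7 windows and in 36.7% of all windows, and the windows of Cx3cr1 and Cd163 held neither. The 4 windows that held both motifs are shown, since they let the letters be read beside the levels. They lie at chr10:54882442-54882691 on the minus strand (Cd68), chr13:52259747-52259996 on the minus strand (Ptprc), chr17:82157475-82157724 on the plus strand (Mrc1) and chr7:54798012-54798261 on the minus strand (Lyz2). They are written 5′ to 3′ along the gene, and capitals mark a match to either motif or to its reverse complement, TTCCTC for GAGGAA and ACTTCC for GGAAGT.
Cd68: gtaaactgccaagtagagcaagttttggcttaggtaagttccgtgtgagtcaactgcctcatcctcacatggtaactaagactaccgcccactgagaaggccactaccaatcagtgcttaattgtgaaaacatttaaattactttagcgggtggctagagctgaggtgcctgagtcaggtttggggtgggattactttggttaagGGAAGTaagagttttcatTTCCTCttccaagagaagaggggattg
Ptprc: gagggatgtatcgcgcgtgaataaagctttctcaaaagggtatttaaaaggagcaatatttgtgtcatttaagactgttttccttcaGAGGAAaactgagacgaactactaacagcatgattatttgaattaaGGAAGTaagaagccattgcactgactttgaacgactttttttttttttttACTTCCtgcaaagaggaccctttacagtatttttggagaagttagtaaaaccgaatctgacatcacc
Mrc1: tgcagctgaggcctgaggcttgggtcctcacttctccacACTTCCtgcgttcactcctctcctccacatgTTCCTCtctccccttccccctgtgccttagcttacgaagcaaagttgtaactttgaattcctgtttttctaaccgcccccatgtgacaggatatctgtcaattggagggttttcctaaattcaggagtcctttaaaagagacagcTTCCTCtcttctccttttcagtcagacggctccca
Lyz2: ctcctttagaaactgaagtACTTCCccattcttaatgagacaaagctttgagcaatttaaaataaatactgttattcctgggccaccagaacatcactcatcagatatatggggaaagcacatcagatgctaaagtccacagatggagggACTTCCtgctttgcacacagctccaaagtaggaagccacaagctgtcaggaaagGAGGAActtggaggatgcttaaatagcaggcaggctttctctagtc
The motifs overlap in none of these 4 windows. A match describes the letters only, and binding was not measured.

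After 7 weeks of IDPN, the fitted level of all 10 macrophage markers was above that of the controls, by 0.88 (Csf1r) to 2.17 (Ptprc) on the log2 scale (51.1% of all genes had a value above 0), and in 9 of the 10 every IDPN-7wk rat was above every control rat. Over all genes tested, 17.2% showed such a separation. None of the 10 passed the test by edgeR, however, whereas DESeq2 called 3 of them (Aif1, Ptprc and Tyrobp), against 3.31% of all genes called upward by it. The main test was edgeR's quasi-likelihood test with Benjamini-Hochberg adjustment, and genes were called at an adjusted p under 0.05 with a change of more than 1.5-fold, which 2% of all genes met in the upward direction. Ptprc and Aif1 were nearest to it (adjusted p = 0.0549 and 0.0613), and 4 of the 10 had an unadjusted p under 0.05 (Ptprc, Aif1, Tyrobp and Fcer1g), against 19.3% of all genes in either direction. The median log2 fold change of the 10 genes was 1.23, against 0.01 over all genes. After 3 weeks, the median was -0.15 and the 3 rats lay far apart.

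**Figure D1:**
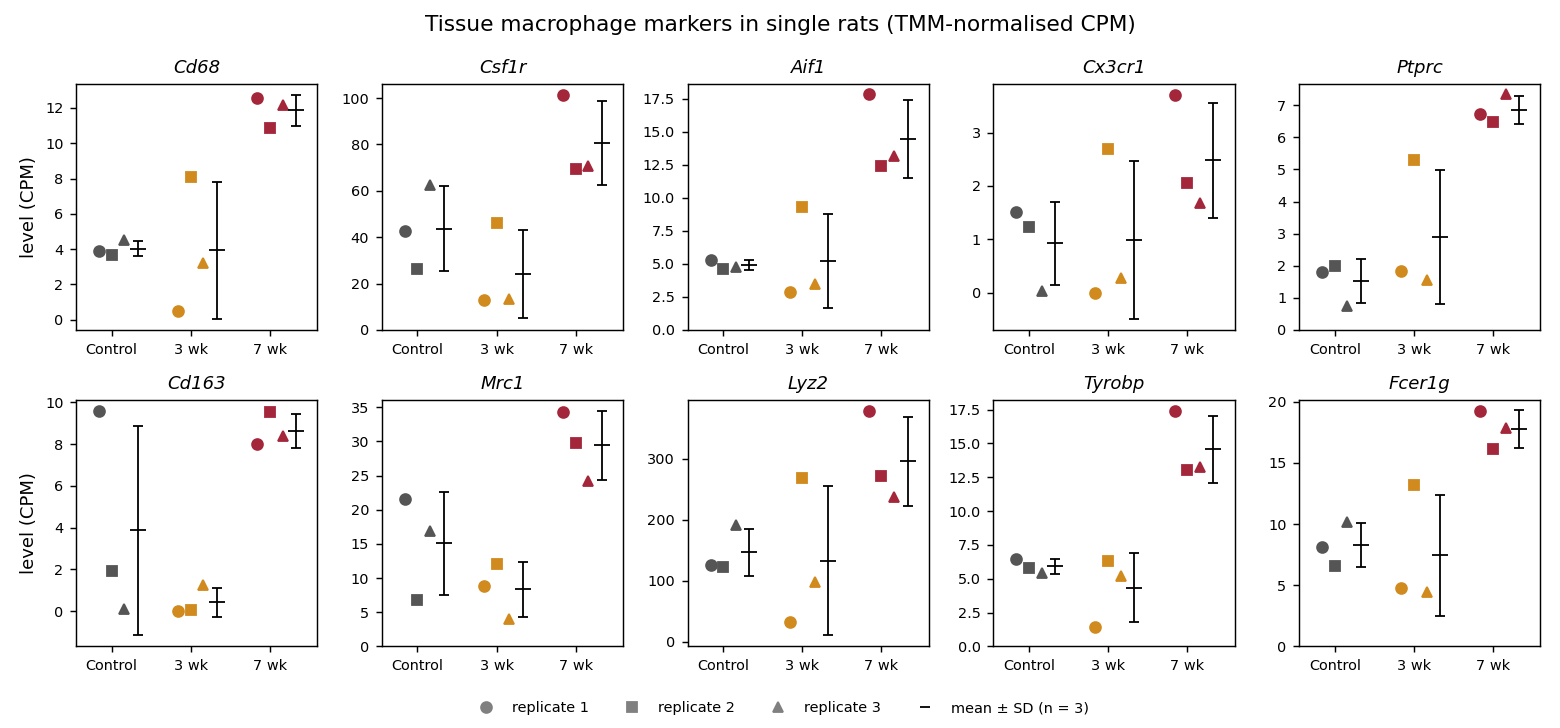
Level of each of the 10 macrophage markers in CPM after TMM normalization (vertical axis, linear, own range for each gene) in control, IDPN-3wk and IDPN-7wk rats, with 1 point per rat, a symbol for each replicate number, and the mean ± SD of 3 rats beside the points. The IDPN-7wk points lie above all control points for every gene except Cd163, and the IDPN-3wk points are spread widely, with replicate 2 the highest of the 3 in all genes but Cd163.

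The general markers Ptprc, Cd68 and Aif1 stood furthest from the controls at 7 weeks. Ptprc encodes CD45, a phosphatase on the surface of all leukocytes. Its level was 1.81, 2.00 and 0.73 CPM in the controls, 1.83, 5.29 and 1.57 CPM in the IDPN-3wk rats, and 6.72, 6.48 and 7.34 CPM in the IDPN-7wk rats. All 3 IDPN-7wk rats were above the other 6, and the lowest of them was 3.23 times the highest control. The fold change at 7 weeks was 4.52, with a 95% interval of 1.86 to 11.0 (edgeR, adjusted p = 0.0549).

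Cd68, a lysosomal membrane protein of phagocytes, was at 3.88, 3.67 and 4.50 CPM in the controls, at 0.46, 8.11 and 3.20 CPM in the IDPN-3wk rats and at 12.5, 10.9 and 12.2 CPM in the IDPN-7wk rats. The controls and the IDPN-7wk rats each formed a tight group (4.02 ± 0.434 and 11.9 ± 0.878 CPM, SD, n = 3), while the IDPN-3wk rats lay on both sides of the controls and the highest was 17.5 times the lowest. The fold change at 7 weeks was 2.95, with a 95% interval of 0.993 to 8.78 from the spread over all 3 groups (edgeR, adjusted p = 0.263). Aif1 encodes IBA1, an actin-binding protein widely used to stain macrophages. Its level was 5.31, 4.61 and 4.75 CPM in the controls, 2.83, 9.33 and 3.47 CPM in the IDPN-3wk rats, and 17.8, 12.4 and 13.2 CPM in the IDPN-7wk rats. The order of the 9 rats differed from that of Cd68 only among the controls, and the IDPN-7wk group again did not overlap with either other group. The fold change at 7 weeks was 2.96 (95% interval 1.54 to 5.69, edgeR, adjusted p = 0.0613).

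The receptors for growth and chemotactic signals, Csf1r and Cx3cr1, also had their highest group mean at 7 weeks, but with the lowest IDPN-7wk rat close to the highest control. Csf1r encodes the receptor for CSF1 and IL-34, and was at 42.4, 26.2 and 62.5 CPM in the controls, at 12.8, 46.1 and 13.3 CPM in the IDPN-3wk rats and at 101, 69.5 and 70.6 CPM in the IDPN-7wk rats. The lowest IDPN-7wk rat was only 1.11 times the highest control, and 2 of the 3 IDPN-3wk rats were below all controls. The fitted fold change was 1.84 at 7 weeks (95% interval 0.879 to 3.85, adjusted p = 0.365) and 0.55 at 3 weeks (0.261 to 1.16, adjusted p = 0.424), both by edgeR. Cx3cr1, the receptor of fractalkine, had a low level throughout, with 1.51, 1.22 and 0.0281 CPM in the controls, 0, 2.69 and 0.277 CPM in the IDPN-3wk rats, and 3.71, 2.06 and 1.67 CPM in the IDPN-7wk rats. Control replicate 3 rested on 1 count, and the count of 0 in IDPN-3wk replicate 1 allows a level of up to 0.0818 CPM. The log2 fold change at 7 weeks was 1.43 with an SE of 1.51 (edgeR, adjusted p = 0.695), so that for Cx3cr1 a difference was not detectable with this spread between rats.

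The scavenger receptors of resident macrophages, Cd163 and Mrc1, were both below their 7-week level in the IDPN-3wk rats. Cd163 binds haptoglobin-haemoglobin complexes, and its level was 9.57, 1.91 and 0.112 CPM in the controls, 0, 0.0673 and 1.23 CPM in the IDPN-3wk rats, and 8.01, 9.54 and 8.38 CPM in the IDPN-7wk rats. Control replicate 1 was the highest of all 9 rats, so Cd163 was the marker in which the IDPN-7wk rats overlapped with the controls. The 3 libraries with fewer detected genes held 4, 0 and 2 counts of Cd163, and the part of this property in its level was not tested. All IDPN-7wk rats were above all IDPN-3wk rats, the lowest of them 6.51 times the highest, and the log2 difference of 4.31 had a 95% interval of 0.87 to 7.75 (edgeR, adjusted p = 0.261). Single rats moved the values of Cd163. The log2 difference between the exposures was 7.99 without IDPN-3wk replicate 3, which leaves 0 and 2 counts at 3 weeks, and the log2 fold change at 7 weeks against control, 1.16 with all rats, was 3.10 without control replicate 1 and 0.59 without control replicate 3. Mrc1 encodes CD206, the mannose receptor, and was at 21.6, 6.83 and 16.9 CPM in the controls, at 8.91, 12.1 and 4.00 CPM in the IDPN-3wk rats and at 34.4, 29.7 and 24.3 CPM in the IDPN-7wk rats. Its IDPN-7wk group did not overlap with the other groups, and it had the smallest adjusted p of the 10 genes between the exposures (log2 difference 1.82 ± 0.46 SE, edgeR, adjusted p = 0.137).

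Lyz2, which encodes the lysozyme of myeloid cells, was at 125, 123 and 191 CPM in the controls, at 32.1, 268 and 97.0 CPM in the IDPN-3wk rats and at 378, 272 and 238 CPM in the IDPN-7wk rats. IDPN-3wk replicate 2 was within the range of the IDPN-7wk rats, and IDPN-3wk replicate 1 was the lowest of all. The fold change at 7 weeks was 2.02 (95% interval 0.837 to 4.86, edgeR, adjusted p = 0.386). Reads that fit related lysozyme genes were divided between them in the authors' counting, so the level of Lyz2 is uncertain in this respect.

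The ITAM adaptors Tyrobp (DAP12) and Fcer1g (the Fc receptor gamma chain) also separated the IDPN-7wk rats from the other rats. Tyrobp was at 6.50, 5.83 and 5.40 CPM in the controls, at 1.47, 6.33 and 5.20 CPM in the IDPN-3wk rats and at 17.4, 13.01 and 13.3 CPM in the IDPN-7wk rats. Every IDPN-7wk rat was at least 2.00 times every other rat. The fold change at 7 weeks was 2.46 (95% interval 1.25 to 4.87, edgeR, adjusted p = 0.130). Fcer1g was at 8.12, 6.61 and 10.2 CPM in the controls, at 4.77, 13.2 and 4.46 CPM in the IDPN-3wk rats and at 19.2, 16.1 and 17.9 CPM in the IDPN-7wk rats. Here too the IDPN-7wk rats were above the other 6, with a fold change of 2.13 against the controls (95% interval 1.16 to 3.94, edgeR, adjusted p = 0.157).

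In 7 of the 10 markers (Cd68, Csf1r, Aif1, Ptprc, Mrc1, Tyrobp and Fcer1g), the 3 IDPN-7wk rats were above all 6 other rats, as in 5.49% of all genes tested. Between the exposures, the fitted level of all 10 was higher at 7 than at 3 weeks, by 1.16 (Lyz2) to 4.31 (Cd163) on the log2 scale, with a median of 1.54 against 0.01 over all genes, of which 51.1% were above 0. In this comparison 8 of the 10 did not overlap, against 12.1% of all genes, with Cx3cr1 and Lyz2 the exceptions. None was called by edgeR (0.348% of all genes were, upward), 8 had an unadjusted p under 0.05 against 13.8% of all genes in either direction, and 3 were called by DESeq2 (Aif1, Mrc1 and Tyrobp, against 1.6% of all genes). With edgeR, 3 were called without IDPN-3wk replicate 2 (Csf1r, Aif1 and Fcer1g, against 0.359% of all genes), and 3 without the 3 libraries with fewer detected genes (Cd68, Aif1 and Fcer1g, against 0.294%). The fit without the 3 libraries leaves a single IDPN-3wk rat, replicate 3. Its calls between the exposures therefore carry no measure of the spread at 3 weeks and are not counted as a result. The median log2 difference of the markers in it was 2.09. Since the controls are shared, the direct comparison of the exposures is the one that bears on the change from 3 to 7 weeks.

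**Figure D2:**
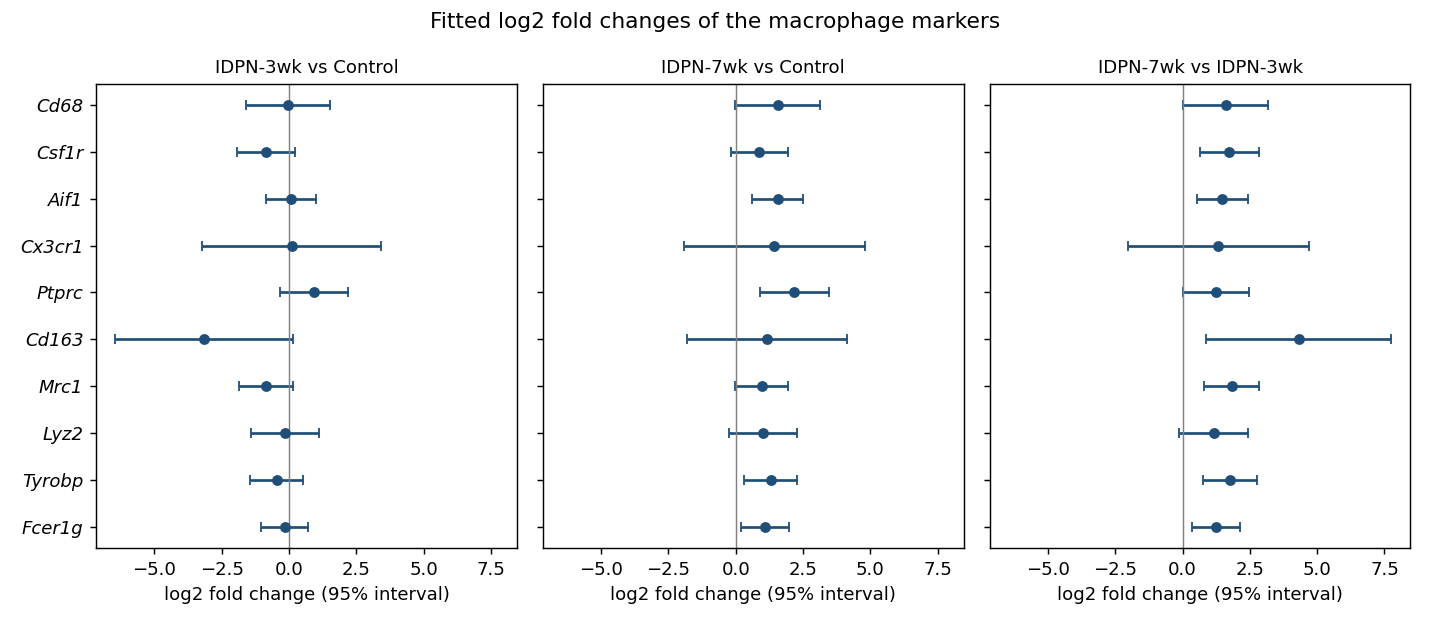
Fitted log2 fold change (horizontal axis) of each macrophage marker in the 3 comparisons, as points with their 95% intervals from the edgeR fit of all 9 libraries. All 10 points lie above 0 for IDPN-7wk against control and against IDPN-3wk, with intervals that reach below 0 for 6 genes in the former, while 7 of the 10 points lie below 0 for IDPN-3wk against control.

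The 3-week rats did not form a group for these markers. IDPN-3wk replicate 2 was above all controls in 6 markers (Cd68, Aif1, Cx3cr1, Ptprc, Lyz2 and Fcer1g), whereas replicate 1 was below all controls in 8 and replicate 3 in 7. The median ratio to the control mean over the 10 markers was 0.271, 1.71 and 0.599 in IDPN-3wk replicates 1, 2 and 3, and 2.76, 2.22 and 2.16 in IDPN-7wk replicates 1, 2 and 3. The median coefficient of variation was 34.0% in controls, 75.4% in IDPN-3wk rats and 17.0% in IDPN-7wk rats. None of the 10 markers was called between IDPN-3wk and control by edgeR or by DESeq2, and none had an unadjusted p under 0.05 by edgeR, against 0.438% of all genes called upward, 1.21% called downward and 15.8% at the unadjusted threshold. The fitted log2 fold changes ran from -3.16 (Cd163) to 0.93 (Ptprc), 3 of them above 0, as were 49.9% of all genes. When single rats were left out, the value of Cd163 ran from -6.83 (without IDPN-3wk replicate 3) to -1.22 (without control replicate 1), and that of Ptprc from 0.16 (without IDPN-3wk replicate 2) to 1.23 (without IDPN-3wk replicate 3).

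The markers varied together over the 9 rats. All 45 pairs had a positive Pearson r on the log2 scale, from 0.479 to 0.961, with a median of 0.803. These points share the libraries and the group differences, so the values describe this set of rats. The genes outside the list with the profile most like the mean profile of the markers, among 11344 candidates over 9 libraries, were C1qc (r = 0.988), Clec10a (0.985), Cfi (0.959), Ctss (0.944), Klhl42 (0.937), Cybb (0.936), Adar (0.933) and Stab1 (0.932). Of these 8 genes, Adar passed the test at 7 weeks (log2 fold change 0.84, edgeR, adjusted p = 0.0329), a call that was lost when any control or IDPN-7wk rat was left out (highest adjusted p = 0.137), and the other 7 did not pass.

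The number of markers called at 7 weeks differed between settings. With the controls and the IDPN-7wk rats alone, edgeR called 6 of 10 (Cd68, Aif1, Ptprc, Lyz2, Tyrobp and Fcer1g, against 3.12% of all genes upward), and DESeq2 on all 9 libraries called 3 (Aif1, Ptprc and Tyrobp, against 3.31%). With at least 10 counts required in every library, 2 of the 8 markers left were called (Aif1 and Ptprc, against 2.69%). Leaving out IDPN-3wk replicate 1, 2 or 3 gave 4, 3 and 1 calls, against 2.39%, 2.23% and 1.98% of all genes, and leaving out any control or IDPN-7wk rat gave none. Without the 3 libraries with fewer detected genes, 7 were called (Cd68, Csf1r, Aif1, Ptprc, Lyz2, Tyrobp and Fcer1g, against 4.12%). Within the 6 libraries with more genes detected, the difference of IDPN-7wk from control in mean log2(CPM + 2) was positive for all 10 markers, from 0.39 (Cx3cr1) to 1.26 (Cd68), with 2 controls and 3 IDPN-7wk rats. Under all settings tried in which they could be fitted, the difference at 7 weeks was above 0 for all 10 markers.

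Genes of the same pathways were taken from lists of signals, receptors and effectors. Of 10 genes of the CSF1 axis, Csf1 was the 1 called, against 0.438% of all genes upward at 3 weeks and 2% at 7 weeks. This ligand of the Csf1r receptor rose at both exposures, and was at 9.01, 11.6 and 8.27 CPM in controls, 24.0, 17.7 and 24.6 CPM in IDPN-3wk rats and 26.7, 23.8 and 25.6 CPM in IDPN-7wk rats, without overlap with the controls in either group. The log2 fold change was 1.20 ± 0.20 SE at 3 weeks (edgeR, adjusted p = 0.0174) and 1.40 ± 0.20 SE at 7 weeks (adjusted p = 0.00320), and the call at 3 weeks was lost without control replicate 1, without control replicate 3 and with the 2 groups alone (highest adjusted p = 0.0882). Il34, the other ligand of the same receptor, was not called, with a 7-week log2 fold change of -0.44 (adjusted p = 0.567). Cx3cl1, which encodes fractalkine, had 0.76 (adjusted p = 0.114). None of the 9 chemokine genes tested was called at 7 weeks, and 3 had an unadjusted p under 0.05, against 19.3% of all genes. The myeloid transcription factor Spi1 was near 1 CPM in controls (0.924 CPM), with 1.40 ± 1.49 SE at 7 weeks (adjusted p = 0.699), all of these by edgeR.

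**Figure D3:**
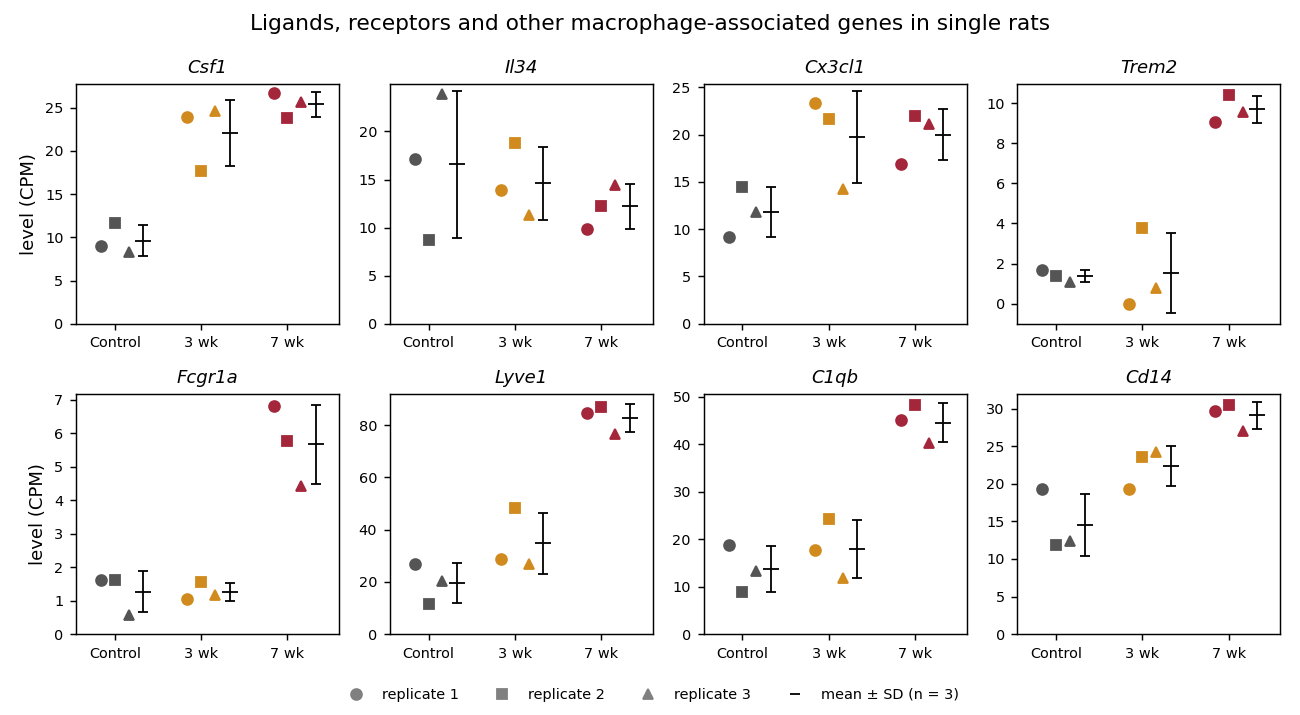
Level in CPM after TMM normalization (vertical axis, linear, own range for each gene) of 8 ligands, receptors and other genes of macrophages in each rat, with the mean ± SD of 3 rats beside the points. For Csf1 the IDPN-3wk and IDPN-7wk points lie above the controls, while for Trem2, Fcgr1a, Lyve1 and C1qb the IDPN-7wk points lie above all other points.

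Of 14 myeloid immunoreceptors and signalling genes, which include ITAM-linked receptors, kinases, the phospholipase gene Plcg2 and the inhibitory receptors Sirpa, Fcgr2b and Cd33, 1 was called at 7 weeks (Fcgr1a), and 11 had a log2 fold change above 0. Over all genes at 7 weeks, 2% were called upward and 51.1% were above 0. Fcgr1a, the high-affinity IgG receptor that signals through Fcer1g, was at 1.27 ± 0.612 CPM in controls, 1.25 ± 0.266 CPM at 3 weeks and 5.67 ± 1.19 CPM at 7 weeks (log2 fold change 2.16, edgeR, adjusted p = 0.0413). This call was lost in 8 of 19 settings, among them the omission of any control or IDPN-7wk rat (highest adjusted p = 0.188). Trem2, a lipid receptor that signals through Tyrobp, was at 1.70, 1.38 and 1.10 CPM in controls, 0, 3.77 and 0.799 CPM in IDPN-3wk rats and 9.09, 10.4 and 9.57 CPM in IDPN-7wk rats. Its groups did not overlap at 7 weeks, but the log2 fold change of 2.80 had an SE of 1.11 (edgeR, adjusted p = 0.201). The kinase Syk stayed below 1 CPM in the mean of each group, with 2.28 ± 1.60 SE (adjusted p = 0.509).

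Over all genes at 7 weeks, 2% were called upward and 51.1% were above 0, the shares to set beside the lists that follow. Of 11 scavenger and engulfment genes tested, 1 was called at 7 weeks and 9 had a log2 fold change above 0, with a median of 0.43. The gene called was Lyve1, a hyaluronan receptor also found on lymphatic endothelium, which rose from 19.6 ± 7.70 to 82.8 ± 5.31 CPM (log2 fold change 2.08 ± 0.31 SE, edgeR, adjusted p = 0.00365), and the call held in all 19 settings. The values below 0 were those of Cd209f (-3.39, adjusted p = 0.376, at a mean of 0.564 CPM in controls) and of Mertk, an engulfment receptor, whose mean was 113 CPM in controls and 72.1 CPM at 7 weeks, with all IDPN-7wk rats below all controls (-0.65, adjusted p = 0.0940). Among the 3 chains of complement C1q, which macrophages make in most tissues, C1qb rose from 13.7 ± 4.91 to 44.5 ± 4.08 CPM (1.70 ± 0.31 SE, adjusted p = 0.00958), also in all 19 settings. C1qc had 1.48 (adjusted p = 0.0628) and C1qa 1.22 (adjusted p = 0.173). All 16 myeloid surface and NADPH oxidase genes had a log2 fold change above 0 at 7 weeks, with a median of 1.13, and Cd14, a co-receptor for bacterial lipopolysaccharide, was the 1 called (1.00 ± 0.21 SE, edgeR, adjusted p = 0.0209; lost in 5 settings, all without 1 control or IDPN-7wk rat, with a highest adjusted p of 0.0858). Adgre1 (F4/80) had 1.17 (adjusted p = 0.146), and Itgam was not analysed here. Of 12 phagolysosomal genes, Gpnmb (0.97, adjusted p = 0.0183) and Grn (0.80, adjusted p = 0.00953) rose and Apoe fell (-0.60, adjusted p = 0.0130). With a threshold of 2-fold, the calls of Gpnmb, Grn and Apoe were all lost. The call of Gpnmb was also lost without control replicate 1 or 2 or without IDPN-7wk replicate 1 or 2 (highest adjusted p = 0.0810). That of Apoe was also lost without control replicate 3, without IDPN-7wk replicate 1, without the 3 libraries with fewer detected genes and with these as a covariate. In those refits the fold change of Apoe was under 1.5, while its adjusted p was at most 0.0472. These 3 genes are made by many cell types besides macrophages. None of 11 pan-leukocyte genes was called at 7 weeks by edgeR, and 4 had an unadjusted p under 0.05, against 19.3% of all genes. Of the 11, 10 had a log2 fold change above 0, with a median of 0.87. None of 8 genes of antigen presentation by class II molecules was called, with a median of 0.24, and Cd74, the invariant chain, had -0.42 (adjusted p = 0.630).

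Markers of other cells were set beside the macrophage markers, whose summed level was 182 to 297 CPM in controls, 65.2 to 372 CPM in IDPN-3wk rats and 407 to 599 CPM in IDPN-7wk rats. Of the microglial genes, Siglech had 0 counts in every library and P2ry12 was at most 0.405 CPM, while Gpr34 and Sall1 were detected in every library. Tmem119, also present throughout, had a mean of 6.09 CPM in controls and 3.45 CPM at 7 weeks, with all IDPN-7wk rats below all controls (log2 fold change -0.82, edgeR, adjusted p = 0.179). Olfml3 from the same list, which other cells also make, rose at 3 and 7 weeks (1.67 and 1.88, edgeR, adjusted p = 0.0112 and 0.00185), although the call at 3 weeks was lost with the 2 groups alone (adjusted p = 0.0557). The sum of the 8 microglial genes was 26.9 to 35.7 CPM in controls, 35.6 to 48.3 CPM at 3 weeks and 48.2 to 50.8 CPM at 7 weeks. The rise of this sum lay mainly in Olfml3, with means of 8.20, 26.0 and 30.2 CPM in the same order of groups. Sall1 had means of 14.7, 7.76 and 11.0 CPM, and Gpr34 of 1.81, 1.49 and 2.66 CPM.

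The 11 neutrophil and monocyte genes summed to 0.506 to 3.48 CPM in controls, 1.21 to 7.96 CPM at 3 weeks and 4.01 to 5.17 CPM at 7 weeks. The value of 7.96 CPM was that of IDPN-3wk replicate 1, where Mpo alone was at 6.49 CPM. Mpo had 0 counts in IDPN-3wk replicates 2 and 3. Elane, Ltf and Retnlg were at 0 in all libraries. Csf3r and Cxcr2 had means of 0.527 and 0.144 CPM in controls and of 2.46 and 1.35 CPM at 7 weeks, with all IDPN-7wk rats above all controls in both (log2 fold change 2.22 and 3.19, edgeR, adjusted p = 0.512 and 0.396). The sum of the 12 T and NK cell genes was 16.4 to 17.0 CPM in controls, 12.9 to 15.8 CPM at 3 weeks and 21.9 to 36.3 CPM at 7 weeks, and this list includes Cd4, which rat macrophages also express. Of the T cell genes, Cd3d and Cd3e were at most 0.492 CPM, while Cd3g was at 2.29 to 5.47 CPM and Lck at 1.75 to 9.08 CPM over the 9 libraries. Cd3g was higher in all IDPN-7wk rats than in all controls (log2 fold change 0.52, edgeR, adjusted p = 0.561). Of the 6 B cell genes, Ms4a1 was at 0 in all libraries, and their sum was 4.45 to 8.44 CPM in controls, 0.303 to 6.62 CPM at 3 weeks and 3.14 to 4.36 CPM at 7 weeks. The 8 mast cell genes, 5 of them at 0 in all libraries, summed to at most 0.432 CPM, and the 6 dendritic cell genes to 4.68 to 9.58 CPM at 7 weeks and 6.27 to 8.52 CPM in controls.

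Red blood cell genes summed to 225 to 275 CPM in controls, 319 to 404 CPM at 3 weeks and 203 to 299 CPM at 7 weeks, and endothelial genes to 391 to 440, 432 to 519 and 350 to 542 CPM. Of the 9 endothelial genes, edgeR called 1 at 7 weeks (Cdh5), against 2% of all genes upward, and 6 had a log2 fold change above 0, against 51.1%. Cdh5 had means of 37.4 CPM in controls and 59.7 CPM at 7 weeks, and its call was lost in 12 of 19 settings. The supporting cell genes summed to 12590 to 12720 CPM in controls, 6887 to 9119 CPM at 3 weeks and 5195 to 7289 CPM at 7 weeks. Schwann cell genes summed to 9313 to 11750, 7602 to 10110 and 3537 to 6973 CPM, and neuronal genes to 124 to 140, 77.3 to 84.6 and 67.8 to 88.9 CPM, in the same order of groups. In the neuronal list, mean levels in controls and at 7 weeks were 38.55 and 10.7 CPM for Snap25. They were 19.1 and 7.15 CPM for Calb2, which the paper treats as an HC gene. The neurofilament genes moved less, with 38.2 and 33.2 CPM for Nefl and 28.6 and 23.8 CPM for Nefm. The part of these shifts in the levels of the macrophage markers was not tested.

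**Figure D4:**
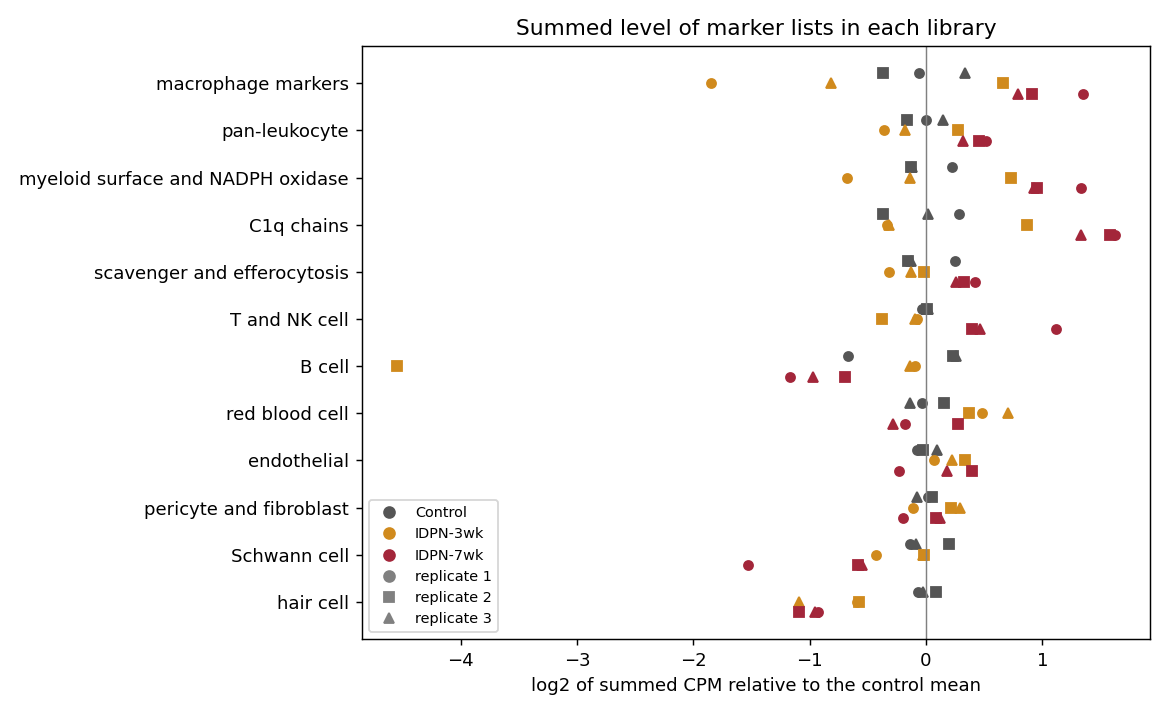
Summed CPM of each list of cell type or pathway genes in each library, as log2 of the ratio to the control mean (horizontal axis), with colour for the group and symbol for the replicate number. The macrophage marker, myeloid surface and C1q sums of the IDPN-7wk rats lie to the right of all controls, the red blood cell and endothelial sums of IDPN-7wk rats lie on both sides of 0, and HC and Schwann cell sums of IDPN-7wk rats lie to the left of all controls.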

How the data were processed

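The utricles and cristae of each rat were pooled and their RNA was sequenced after SMARTseq2 amplification. According to the submitters' processing notes, the authors used STAR 2.5.3a and RSEM 1.3.0, and the values they deposited are estimated counts per gene, given as whole numbers for 32883 genes without normalization. Library totals ran from 31100118 to 46018385 counts.

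Genes were kept by filterByExpr (15517), normalized by TMM and tested with the robust quasi-likelihood test of edgeR 4.0.16 (limma 3.58.1, R 4.3.3) in a single fit of all 9 libraries with a mean per group and 6 residual degrees of freedom. Benjamini-Hochberg adjustment was made over all genes tested within each of the 3 comparisons. Genes were called at an adjusted p under 0.05 with a change of more than 1.5-fold. The SE was the log2 fold change divided by the square root of F, and intervals at 95% used the degrees of freedom of the fit. With 3 rats a group, 0.1 is the smallest two-sided p of an exact permutation test, so single genes were tested within the model only. Levels are CPM, counts per effective library size. Differences within sets of libraries used log2(CPM + 2). Counts of replicates differed by a chi-square per gene of 18.7 or more. The labels give each library a rat of its own. The scripts were tested on simulated data with known changes.

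The alternatives tried were the Wald test of DESeq2 1.42.0, RLE size factors, all genes unfiltered, a minimum of 10 counts in each library, a fit of the 2 compared groups alone, a 2-fold threshold or none, a covariate for the 3 libraries in which fewer genes were detected, omission of the mitochondrial genes, and omission of single libraries. A fit without those 3 was added after the data were seen. The members and the lists of other genes were chosen with earlier results of these data known. Named were all 10 members, genes of the lists called in any comparison (at most 5 per list), a few ligands, receptors and C1q chains whatever their values, and the 8 genes of at least 5 CPM on average with the highest Pearson correlation to the mean standardized log2 CPM profile of the members. Of the called genes, those of lists of other cell types are given only as sums, except Olfml3, Cdh5, Snap25 and Calb2. Upstream windows came from RefSeq (GRCr8), and the strand used in counting is not given in the sources used here.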

Additional observations from a re-analysis of the deposited data

How the results depend on the processing

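Of the 10 macrophage markers, none was called by edgeR in any of the 3 comparisons in the fit of all 9 libraries. For IDPN-7wk against control, the number called was 3 with DESeq2 (3.31% of all genes upward), 2 with at least 10 counts in every library (8 markers tested, 2.69%), 6 with only the 2 groups (3.12%) and 7 without the 3 libraries with fewer detected genes (4.12%), the alternative added after seeing the data, and it ran from 0 to 4 when single libraries were left out. For IDPN-7wk against IDPN-3wk it was 3 with DESeq2 (1.6%) and 0 to 3 when single libraries were left out, the 3 being without IDPN-3wk replicate 2 (0.359%). For IDPN-3wk against control it was 0 under all other alternatives. The fit without those 3 libraries keeps only replicate 3 of the IDPN-3wk rats, so its calls are not counted in the comparisons with IDPN-3wk. RLE factors, no filter, either other fold change threshold, the covariate and the omission of mitochondrial genes left all 3 counts at 0. All 188 fitted values of the markers against control at 7 weeks, and all 188 between the exposures, were above 0. Those under the other fold change thresholds repeat the main fit, and the rest are refits of the same rats. At 3 weeks 16 of 188 changed sign. Among them were Aif1 with the covariate (-0.078) and, without the 3 libraries, Aif1 (-0.51), Cx3cr1 (-2.29) and Ptprc (-0.28), the latter with only replicate 3 of the IDPN-3wk rats. The rest arose when single libraries were left out, in the genes whose ranges follow. When single libraries were left out, the log2 fold change at 3 weeks ran from -1.14 to 0.49 for Cd68, from -0.63 to 0.38 for Aif1, from -2.73 to 0.68 for Cx3cr1, from -1.18 to 0.32 for Lyz2 and from -0.85 to 0.11 for Fcer1g. The cause of these shifts was not tested. No paired analysis was possible because the labels give no replicate numbers, and those used here follow the order of the samples. Codes in the sample titles, whose meaning is not given, are shared by all controls, by IDPN-3wk replicates 2 and 3, by IDPN-7wk replicates 2 and 3, and by replicate 1 of both exposures. No code joins a control with an exposed rat, so against the controls code and group cannot be told apart, and the code that joins the exposures holds too few rats for a test. Cx3cr1 and Cd163 had 0 counts in IDPN-3wk replicate 1, and Cd163 ranged from 4 to 355 counts between controls. The part of depth in these values was not tested.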
